A study of Rattus norvegicus with 16 samples.

Results

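Transcripts of 9 mitochondrial enzymes that carry pyruvate into and around the citric acid cycle were followed in injured rat supraspinatus, a muscle of the rotator cuff. The genes were chosen by name, as rows of the deposited table whose symbol is Pdha1, Pdhb, Cs, Idh2, Idh3a, Idh3b, Ogdh, Suclg1 or Mdh2. All 9 were found among 17147 genes, 8 by exact symbol and Idh3b by its spelling Idh3B in the table, and all 9 passed the filter for low counts that left 11658 genes to test. The 16 libraries came from Sprague Dawley rats in 4 groups of 4. One group was unoperated (0 days, labelled control), and the others were taken 10, 30 and 60 days after a tear through the full thickness of the supraspinatus on both sides combined with removal of suprascapular nerve. Every operated group carried both lesions and the controls carried neither, so tear, denervation and surgery cannot be told apart, and neither sex nor age of the animals is given in the sources used here.

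The pyruvate dehydrogenase complex converts pyruvate, the end product of glycolysis, to acetyl-CoA inside the mitochondrion. Citrate synthase joins the acetyl group to oxaloacetate, and the cycle then oxidises it through isocitrate, 2-oxoglutarate, succinyl-CoA, succinate, fumarate and malate, handing electrons to the respiratory chain. Skeletal muscle fibres are rich in these enzymes, citrate synthase activity is widely used as a measure of mitochondrial content, and muscle that loses its nerve supply is known to lose oxidative capacity.

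Library totals ran from 17.2 to 39.9 M fragments, and the 60-day libraries were the shallowest (19.5 ± 2.56 M, SD, n = 4). Levels below are CPM, a gene's fragments scaled to a common library size after TMM scaling, which compares libraries through the bulk of their genes. The 10 most abundant genes took 24.6% ± 0.604 (SD, n = 4) of the fragments in unoperated muscle and 13.3% ± 0.960 on day 10, so the choice of scaling matters. With unscaled library totals, the middle log2 fold change over every gene tested against 0 days shifted up by 0.66, 0.49 and 0.41 on days 10, 30 and 60, and the share of called genes that were higher went from 53.1%, 52.2% and 50.7% to 87.4%, 84.1% and 82.7%. Changes are therefore stated relative to the bulk of genes, and calls or directions that differ with library totals are given beside the genes described. Counts by list for genes around the pathway and for cell type markers are with TMM scaling. Muscle fibre genes were abundant in every library. Of 10 listed muscle fibre markers 8 were found, Acta1 and Ckm among them, and Ttn and Neb were not. The 8 summed to 214662 CPM ± 6315 (SD, n = 4) in unoperated muscle, 49805 ± 1953 on day 10, 108233 ± 20256 on day 30 and 133509 ± 6956 on day 60. In whole muscle, fewer fibres and less of a transcript per fibre cannot be told apart. Nothing in the labels says whether libraries came from separate rats, so p-values measure the spread between libraries, which may be partly technical.

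Relative to the bulk of genes, the 9 enzymes together were lowest on day 10 and came part of the way back. Their summed fragments were 0.794% ± 0.0253 (SD, n = 4) of the TMM-scaled total in unoperated muscle, 0.294% ± 0.0388 on day 10, 0.478% ± 0.0919 on day 30 and 0.596% ± 0.0636 on day 60. As a share of the unscaled total the same sums were 0.606% ± 0.0123, 0.354% ± 0.0452, 0.511% ± 0.0762 and 0.603% ± 0.0596, so on that scale the 60-day and unoperated groups overlapped. On day 10 all 9 were called lower (edgeR's quasi-likelihood test, adjusted p under 0.05 over all genes tested), against 29.4% of all genes tested, and for all 9 the groups did not overlap, against 27.8% of all genes tested in that direction. On day 30 the number called lower was 8, against 30.9% of all genes, and on day 60 it was 5, against 29.1% of all genes. Groups did not overlap for 8 enzymes on day 30 and 7 on day 60, against 29.1% and 26% of all genes lower in that sense. None of the 9 was called higher on days 10, 30 or 60, against 33.3%, 33.7% and 29.9% of all genes. The median log2 fold changes of the 9 against 0 days were -1.51, -0.70 and -0.32, beside 0.061, 0.046 and 0.040 for all genes tested. With library totals the counts were 9, 4 and 4 and the medians -0.85, -0.22 and 0.086, so the 60-day direction depends on the scaling.

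Between the operated groups the enzymes separated. From 10 to 30 days 6 of the 9 rose, against 23% of all genes tested (upper-quartile factors also called Pdha1, 0.23, edgeR adjusted p 0.0360), and from 10 to 60 days 7 rose, against 29.1% of all genes, and 0 were called lower, against 31.9% of all genes. From 30 to 60 days Mdh2 alone was called higher, against 10.3% of all genes. Cs and Ogdh were called in none of these 3 comparisons. In a joint test of the 4 groups all 9 varied, with adjusted p from 2.04e-08 for Idh3a to 2.63e-05 for Idh2, but so did 84.7% of all genes tested.

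**Figure D1:**
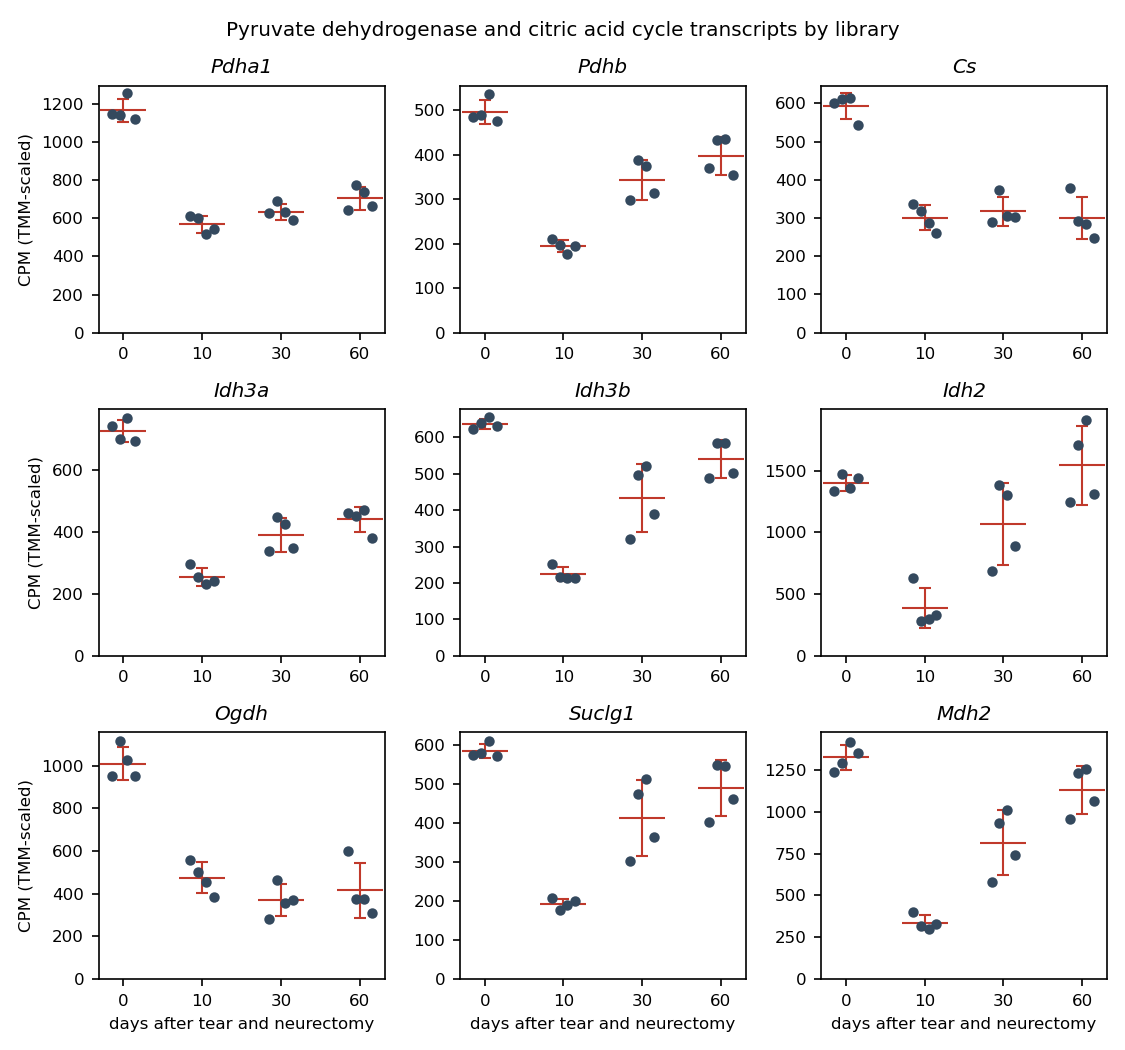
TMM-scaled CPM of the 9 enzymes (vertical axes, each starting at 0) at 0, 10, 30 and 60 days after tear and neurectomy (horizontal axes, not to scale in time). Each point is 1 library, red bars are mean and SD of 4, and every panel shows the 4 unoperated libraries above all 10-day libraries, while Cs and Ogdh stay low on day 60 and Idh2 does not.

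The E1 component of pyruvate dehydrogenase, which decarboxylates pyruvate, is built from alpha subunits encoded by Pdha1 and beta subunits encoded by Pdhb. Pdha1 measured 1147, 1143, 1257 and 1123 CPM in the unoperated libraries, 611, 600.0, 516 and 546 on day 10, 628, 691, 632 and 589 on day 30 and 645, 774, 738 and 667 on day 60. Every operated library lay below every unoperated one, and the 10-day and 30-day groups overlapped each other. Pdha1 was lower by log2 -1.04 ± 0.086 (SE; edgeR adjusted p 2.61e-08) on day 10, -0.88 ± 0.085 (2.32e-07) on day 30 and -0.73 ± 0.085 (2.77e-06) on day 60. Its rise from 10 to 60 days was small (0.31 ± 0.085, edgeR adjusted p 0.00443) and was lost with library totals (0.064, adjusted p 0.524). The table also lists Pdha2, a paralog known for expression in the testis, at 0 in all 16 libraries.

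Pdhb moved further in both directions. It measured 485, 488, 536 and 475 CPM in unoperated muscle, 210.0, 196, 177 and 194 on day 10, 297, 388, 375 and 313 on day 30 and 369, 432, 434 and 353 on day 60. The unoperated, 10-day and 30-day groups were all apart from one another, and the 60-day libraries overlapped only those of 30 days. On the log2 scale Pdhb differed from unoperated muscle by -1.35 ± 0.10 (SE; edgeR adjusted p 7.55e-09), -0.53 ± 0.098 (0.000181) and -0.32 ± 0.098 (0.0100). From 10 to 60 days Pdhb rose by log2 1.03 ± 0.099 (edgeR adjusted p 2.72e-07). Its 60-day difference from 0 days was lost when unoperated replicate 3 or 60-day replicate 4 was left out (-0.26 and -0.25, edgeR adjusted p 0.0528 and 0.0600), and library totals gave -0.043 on day 30 and 0.086 on day 60, neither called (edgeR adjusted p 0.657 and 0.371).

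The balance of the E1 subunits can be read within each library, where scaling cancels. The ratio of Pdhb to Pdha1 fragments was 0.423, 0.427, 0.427 and 0.423 in the unoperated libraries, 0.343, 0.327, 0.343 and 0.355 on day 10, 0.473, 0.562, 0.593 and 0.531 on day 30 and 0.573, 0.558, 0.589 and 0.530 on day 60. It was thus below every unoperated value on day 10 and above every unoperated value on days 30 and 60. The mean log2 ratio differed from 0 days by -0.31 ± 0.025 (SE, n = 4 and 4), 0.34 ± 0.070 and 0.40 ± 0.033, each with a two-sided exact permutation p of 0.0286, the smallest that 4 against 4 can give (adjusted p 0.0361 over 24 ratio tests). Such a ratio is of fragments, not of molecules, since gene lengths were not used, and it shows unequal change of the 2 genes without saying which of them moved.

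Citrate synthase (Cs), the entry enzyme of the cycle, fell and stayed down. It measured 602, 612, 615 and 544 CPM in unoperated muscle, 336, 319, 288 and 261 on day 10, 288, 372, 306 and 304 on day 30 and 378, 292, 285 and 248 on day 60. The 3 operated groups overlapped one another and none reached the unoperated range. On the log2 scale Cs differed from unoperated muscle by -0.98 ± 0.12 (SE; edgeR adjusted p 2.28e-06), -0.90 ± 0.12 (6.72e-06) and -0.98 ± 0.12 (4.06e-06). Between 60 and 10 days the difference was -0.0013 ± 0.12 (edgeR adjusted p 0.993), and library totals gave -0.26 (edgeR adjusted p 0.0410). Cs was called lower than 0 days at all 3 times with library totals too (-0.32, -0.41 and -0.58).

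The next oxidation, of isocitrate, is done by a pair of different enzymes. The NAD-dependent enzyme, the one of the classical cycle, has catalytic alpha subunits (Idh3a) together with beta (Idh3b) and gamma (Idh3g) subunits, and the NADP-dependent mitochondrial enzyme (Idh2) supplies NADPH. Idh3a measured 742, 702, 770.4 and 695 CPM in unoperated muscle, 296, 253, 232 and 241 on day 10, 338, 448, 425 and 350.3 on day 30 and 462, 451, 473 and 382 on day 60. All operated libraries stayed below the unoperated ones. Idh3a was lower by log2 -1.51 ± 0.11 (SE; edgeR adjusted p 5.10e-09), -0.90 ± 0.11 (1.80e-06) and -0.72 ± 0.10 (2.46e-05) at the 3 times, and rose by 0.79 ± 0.10 (7.45e-06) from 10 to 60 days.

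Idh3b measured 623, 639, 655 and 632 CPM in unoperated muscle, 253, 217, 213 and 214 on day 10, 322, 497, 522 and 391 on day 30 and 489, 585, 585 and 503 on day 60. The operated libraries were again all below the unoperated ones, but the gap on day 60 was narrow. Idh3b was lower by log2 -1.51 ± 0.13 (SE; edgeR adjusted p 3.01e-08) on day 10 and -0.56 ± 0.12 (0.000880) on day 30, and was not called on day 60 (-0.24 ± 0.12, adjusted p 0.107). With library totals the later values were -0.075 and 0.17, neither called (edgeR adjusted p 0.534 and 0.162). The 60-day difference was called lower with the 8 libraries alone (-0.22, 0.0436) and without 30-day replicate 1 (-0.24, 0.0427). The ratio of Idh3b to Idh3a fragments averaged 0.877 ± 0.0377 (SD, n = 4) in unoperated muscle, 0.879 ± 0.0296 on day 10, 1.10 ± 0.113 on day 30 and 1.23 ± 0.117 on day 60. The log2 ratio differed from 0 days by 0.0038 ± 0.039 (SE) on day 10 (exact permutation p 0.886), by 0.32 ± 0.082 on day 30 and by 0.48 ± 0.078 on day 60 (both exact permutation p 0.0286, adjusted 0.0361).

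Idh2 had the largest standard errors of the 9 enzymes. It measured 1331, 1474, 1360.3 and 1436 CPM in unoperated muscle, 631, 284, 302 and 333 on day 10, 686, 1386, 1305 and 887 on day 30 and 1244, 1709.9, 1912 and 1312 on day 60. The 10-day group lay below all others, the 30-day group reached into the unoperated range, and the 60-day group straddled it. Idh2 was lower by log2 -1.85 ± 0.26 (SE; edgeR adjusted p 1.46e-05) on day 10 and was not called on day 30 (-0.39 ± 0.25, adjusted p 0.183) or day 60 (0.14 ± 0.25, 0.645). It rose by 1.99 ± 0.26 (edgeR adjusted p 9.11e-06) from 10 to 60 days, and library totals turned the sign of its 30-day difference from 0 days (0.085, adjusted p 0.756). Relative to Idh3a in the same library, Idh2 fragments averaged 1.93 ± 0.175 (SD, n = 4), 1.48 ± 0.446, 2.68 ± 0.506 and 3.49 ± 0.587 at the 4 times. The log2 ratio was higher on day 60 than in unoperated muscle by 0.84 ± 0.14 (SE; exact permutation p 0.0286, adjusted 0.0361). The differences on days 10 and 30 did not pass the threshold (-0.42 ± 0.21 and 0.46 ± 0.16; exact permutation p 0.143 and 0.0857, adjusted 0.156 and 0.0980).

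Ogdh encodes the E1 component of the 2-oxoglutarate dehydrogenase complex, a relative of pyruvate dehydrogenase. It measured 949, 1113, 1025 and 950.1 CPM in unoperated muscle, 558, 503, 456 and 383 on day 10, 282, 464, 357 and 372 on day 30 and 601, 375, 376 and 311 on day 60. The operated groups overlapped one another and stayed clear of the unoperated group, with 1 library of 60 days (replicate 1) well above its fellows. Ogdh was lower by log2 -1.09 ± 0.18 (SE; edgeR adjusted p 8.13e-05) on day 10, -1.45 ± 0.19 (5.39e-06) on day 30 and -1.28 ± 0.18 (2.54e-05) on day 60, and was called lower at all 3 times with library totals too (-0.43, -0.96 and -0.88). From 10 to 60 days it was not called (-0.19 ± 0.18, adjusted p 0.371), but without 60-day replicate 1 it was called lower (-0.43, edgeR adjusted p 0.0192), as it was with library totals (-0.45, edgeR adjusted p 0.0219). From 10 to 30 days the value was -0.36 ± 0.18 (adjusted p 0.111), called lower without 30-day replicate 2 (-0.50, edgeR adjusted p 0.0453), without 60-day replicate 1 (-0.37, 0.0346) and with library totals (-0.53, 0.0120).

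Suclg1 encodes the alpha subunit of succinyl-CoA ligase, which is shared by the ATP-forming and GTP-forming versions of that enzyme. It measured 575, 579, 610.4 and 572 CPM in unoperated muscle, 207, 178, 189.8 and 199 on day 10, 302, 475, 512 and 365 on day 30 and 402, 548, 547 and 462 on day 60. No operated library reached the unoperated range, although 2 on day 60 came near it. Suclg1 was lower by log2 -1.59 ± 0.14 (SE; edgeR adjusted p 5.32e-08) on day 10 and -0.50 ± 0.14 (0.00445) on day 30, was not called on day 60 (-0.25 ± 0.14, 0.119), and rose by 1.34 ± 0.14 (6.02e-07) from 10 to 60 days. With library totals the values on days 30 and 60 were -0.017 and 0.15, neither called (edgeR adjusted p 0.904 and 0.269).

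The ratio of Suclg1 to Ogdh fragments was 0.606, 0.520, 0.595 and 0.602 in unoperated muscle, 0.370, 0.354, 0.416 and 0.520 on day 10, 1.07, 1.02, 1.43 and 0.979 on day 30 and 0.669, 1.46, 1.45 and 1.49 on day 60. On day 60 replicates 2 to 4 lay close together and replicate 1 sat just above the unoperated range. The log2 ratio was higher than in unoperated muscle by 0.94 ± 0.13 (SE) on day 30 and 1.06 ± 0.29 on day 60 (both exact permutation p 0.0286, adjusted 0.0361), and differed by -0.50 ± 0.13 on day 10 (exact permutation p 0.0571, adjusted 0.0686). Leaving out 60-day replicate 1 moved the 60-day value to 1.34.

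Mdh2, mitochondrial malate dehydrogenase, regenerates the oxaloacetate that citrate synthase uses. It measured 1241, 1291, 1418 and 1350.1 CPM in unoperated muscle, 403, 319, 298 and 332 on day 10, 582, 931, 1011 and 742 on day 30 and 959, 1234, 1258 and 1064 on day 60. On day 10 it stood at 25.5% of the unoperated level in the fit, the lowest of the 9, and on day 60 replicate 3 alone had passed the lowest unoperated one. Mdh2 was lower by log2 -1.97 ± 0.15 (SE; edgeR adjusted p 1.28e-08) on day 10 and -0.70 ± 0.15 (0.000600) on day 30 and was not called on day 60 (-0.23 ± 0.15, 0.186). With library totals the later values were -0.22 and 0.18, neither called (edgeR adjusted p 0.140 and 0.231). From 10 to 60 days it rose by 1.74 ± 0.15 (edgeR adjusted p 1.01e-07), and from 30 to 60 days by 0.47 ± 0.15 (0.0312), a call lost when 30-day replicate 1 or 4 or 60-day replicate 2 or 3 was left out (edgeR adjusted p 0.0854 to 0.0908) and when the 8 libraries of these groups were fitted alone (0.104).

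Mdh2 and Cs catalyse neighbouring steps and changed unequally. The ratio of Mdh2 to Cs fragments was 2.06, 2.11, 2.31 and 2.48 in unoperated muscle, 1.20, 1.00, 1.04 and 1.27 on day 10, 2.02, 2.50, 3.31 and 2.44 on day 30 and 2.54, 4.23, 4.42 and 4.29 on day 60. All 10-day values were below and all 60-day values above the unoperated range, and the 30-day values overlapped it. The log2 ratio differed from 0 days by -0.99 ± 0.10 (SE) on day 10 and 0.76 ± 0.20 on day 60 and rose by 1.75 ± 0.21 between them (each exact permutation p 0.0286, adjusted 0.0361). On day 30 it differed by 0.18 ± 0.16 (exact permutation p 0.343).

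**Figure D2:**
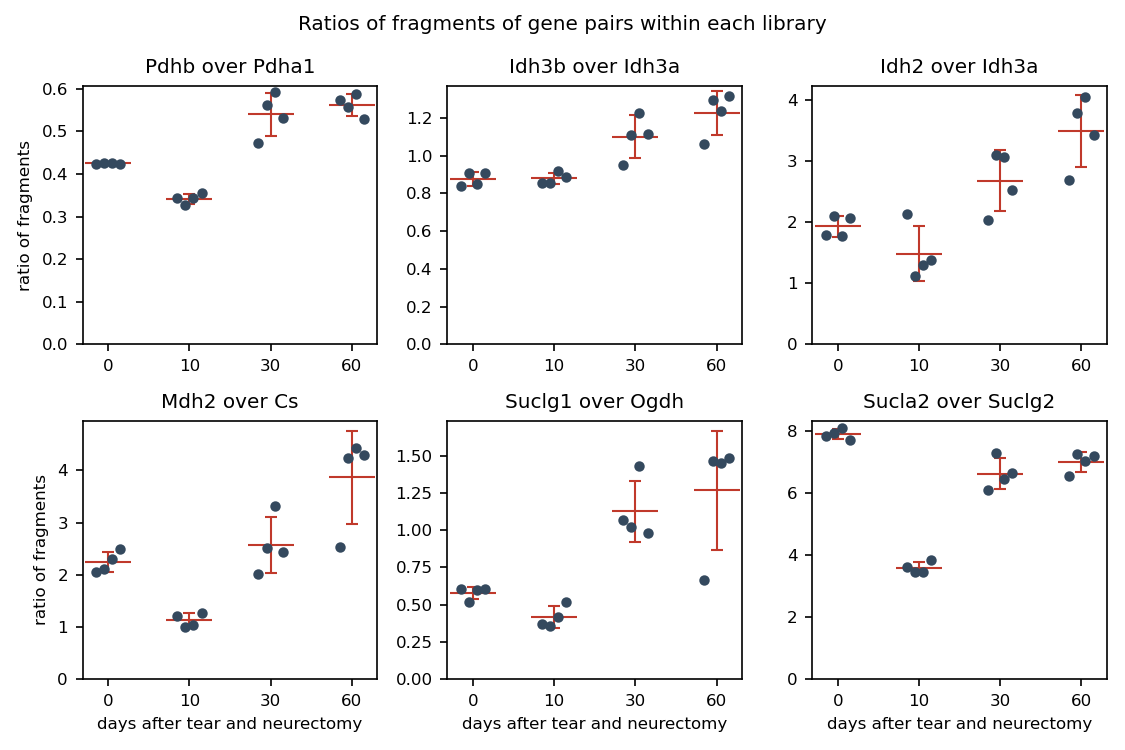
Ratios of fragments of 6 gene pairs within each library (vertical axes, from 0) by days after tear and neurectomy, with 1 point per library and red bars for mean and SD of 4. Mdh2 over Cs falls from 2.24 to 1.13 on day 10 and reaches 3.87 on day 60, Pdhb over Pdha1 goes below and then above its unoperated value, and Sucla2 over Suclg2 drops on day 10.

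Promoter sequences are shown for Mdh2 and Idh3b, chosen because they hold a motif searched for, and, as windows without it, for Suclg1, which also rose from 10 to 60 days, and Cs, which did not rise. They are the 250 bases before the RefSeq gene start in the GRCr8 assembly, written 5′ to 3′ on the gene's strand. Windows for 8 of the 9 enzymes were matched by symbol. Capitals mark CCGGAAG or its reverse complement, the core bound by ETS-family factors such as GABPA.
Mdh2 (chr12:26543842-26544091, minus strand): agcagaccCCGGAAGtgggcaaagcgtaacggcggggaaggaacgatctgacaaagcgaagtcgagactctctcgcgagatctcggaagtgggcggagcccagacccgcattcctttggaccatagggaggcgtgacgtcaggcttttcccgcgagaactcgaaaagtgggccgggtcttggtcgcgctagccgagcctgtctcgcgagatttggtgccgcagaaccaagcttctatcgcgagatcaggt
Idh3b (chr3:137939991-137940240, minus strand): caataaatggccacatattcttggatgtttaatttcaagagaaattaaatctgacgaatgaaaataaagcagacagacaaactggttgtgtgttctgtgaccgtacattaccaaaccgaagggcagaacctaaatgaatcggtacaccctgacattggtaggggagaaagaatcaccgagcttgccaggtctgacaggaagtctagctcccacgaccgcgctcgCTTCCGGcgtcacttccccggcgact
Suclg1 (chr4:106866079-106866328, plus strand): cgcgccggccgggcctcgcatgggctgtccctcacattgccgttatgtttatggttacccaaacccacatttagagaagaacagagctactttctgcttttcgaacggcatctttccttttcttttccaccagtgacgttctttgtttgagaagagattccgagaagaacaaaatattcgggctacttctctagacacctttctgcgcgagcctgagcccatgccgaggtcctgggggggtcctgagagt
Cs (chr7:1348139-1348388, plus strand): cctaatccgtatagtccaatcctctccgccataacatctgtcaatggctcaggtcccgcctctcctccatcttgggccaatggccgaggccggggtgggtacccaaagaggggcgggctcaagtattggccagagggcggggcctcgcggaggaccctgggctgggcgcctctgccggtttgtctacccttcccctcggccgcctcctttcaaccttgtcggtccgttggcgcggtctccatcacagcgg
CCGGAAG was found, on either strand, in these Mdh2 and Idh3b windows and in none of the other 6, among them those of Pdha1, Pdhb, Idh2 and Suclg1, which also rose from 10 to 60 days, and in 7.27% of 33469 rat promoter windows of the same length. AAGGTCA, the core recognised by estrogen-related receptors, was in 0 of the 8 windows and in 3.99% of all, and the palindrome bound by NRF1 in 0 of the 8 and in 3.75% of all. Both strands were searched and none of the 3 motifs contains another. Among 12 matched windows of the other genes of the complex and the cycle, 4 held CCGGAAG, 2 held the NRF1 motif and 0 held AAGGTCA. Of the 8 enzyme windows 7 held more G and C than the median of all windows (51.2%), with a range of 47.2% to 68.8%. The shares over all windows were not matched for this base content. A match or its absence describes only these letters in this window.

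The other 13 listed genes of the complex and the cycle were counted as a group. The number called lower was 12 of 13 on day 10, 13 on day 30 and 8 on day 60, against 29.4%, 30.9% and 29.1% of all genes, with medians of log2 -1.42, -0.67 and -0.53, beside medians near 0 for all genes tested. With library totals Sdhb, Sdhc and Sdhd on day 30 and Sdhb, Sdhc, Sdhd, Fh and Idh3g on day 60 had values above 0 (0.033 to 0.30), of which Sdhb, Sdhc and Sdhd on day 60 were called higher. Idh3g and Fh lost their 30-day calls on that scale (-0.19 and -0.15, edgeR adjusted p 0.175 and 0.239). Within pyruvate dehydrogenase, the E2 core (Dlat), its E3-binding partner (Pdhx) and E3 (Dld, shared with other dehydrogenase complexes) were lower at all 3 times: Dlat by -1.42, -1.08 and -1.02, Pdhx by -1.36, -0.86 and -0.92, and Dld by -1.22, -0.76 and -0.66. Idh3g, the third subunit of the NAD-dependent isocitrate dehydrogenase, was lower by -1.89 and -0.67 on days 10 and 30 and was not called on day 60 (-0.20, adjusted p 0.216). Dlst, the E2 partner of Ogdh, was lower by -1.13, -0.49 and -0.45, the later calls being lost with library totals (-0.0013 and -0.045).

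Succinate dehydrogenase, which is also complex II of the respiratory chain, has 4 subunits, and whether they differ from one another on day 60 was not tested. Its flavoprotein gene Sdha was lower at all 3 times (log2 -1.71, -1.10 and -0.83). Sdhb, which carries the iron-sulfur clusters, and the membrane anchors Sdhc and Sdhd were lower on day 10 (-1.43, -1.53 and -1.42) and day 30 (-0.36, -0.36 and -0.45) and not called on day 60 (-0.11, -0.15 and -0.14; adjusted p 0.454, 0.316 and 0.247), whereas with library totals these 3 were called higher on day 60 (0.30, 0.26 and 0.27; edgeR adjusted p 0.0147, 0.0398 and 0.0166). Upper-quartile factors too ended the calls of Sdhb and Sdhc on day 30 (edgeR adjusted p 0.0900 and 0.109). The Sdhc call was lost without unoperated replicate 3 or 30-day replicate 1 or 4 (0.0533 to 0.0617). Fumarase (Fh) was lower by -1.54 and -0.63 on days 10 and 30 and not called on day 60 (-0.26, adjusted p 0.0718), though it was without 30-day replicate 1 or 60-day replicate 2 (edgeR adjusted p 0.0380 and 0.0492). From 10 to 60 days 12 of the 13 genes were called higher and 1, Suclg2, was called lower. Dlat and Pdhx lost this call with library totals (0.15 and 0.19; edgeR adjusted p 0.135 and 0.119).

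Suclg2, the beta subunit that makes succinyl-CoA ligase form GTP, was the exception of the list. It measured 120.5, 118, 125 and 118 CPM in unoperated muscle, 112, 117, 112 and 107 on day 10, 80.0, 85.9, 84.3 and 75.1 on day 30 and 83.0, 88.6, 87.4 and 74.9 on day 60. On day 10 it was just below the unoperated range and not called (log2 -0.10 ± 0.064, SE; edgeR adjusted p 0.167), and it was lower on day 30 (-0.56 ± 0.065, 1.47e-06) and day 60 (-0.53 ± 0.065, 4.49e-06). With library totals it was called higher on day 10 (0.55, edgeR adjusted p 3.21e-07) and not called on days 30 and 60 (-0.071 and -0.12; 0.301 and 0.0898), and the 8 libraries alone called it lower on day 10 (-0.13, 0.0440). The ATP-forming beta subunit, Sucla2, fell on day 10 like Suclg1 (log2 -1.25, then -0.82 and -0.70). The ratio of Sucla2 to Suclg2 fragments dropped from 7.90 ± 0.165 (SD, n = 4) in unoperated muscle to 3.59 ± 0.191 on day 10 and was 6.62 ± 0.505 and 7.01 ± 0.316 on days 30 and 60, a log2 difference from 0 days of -1.14 ± 0.041 (SE), -0.26 ± 0.056 and -0.17 ± 0.036 (each exact permutation p 0.0286, adjusted 0.0361).

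**Figure D3:**
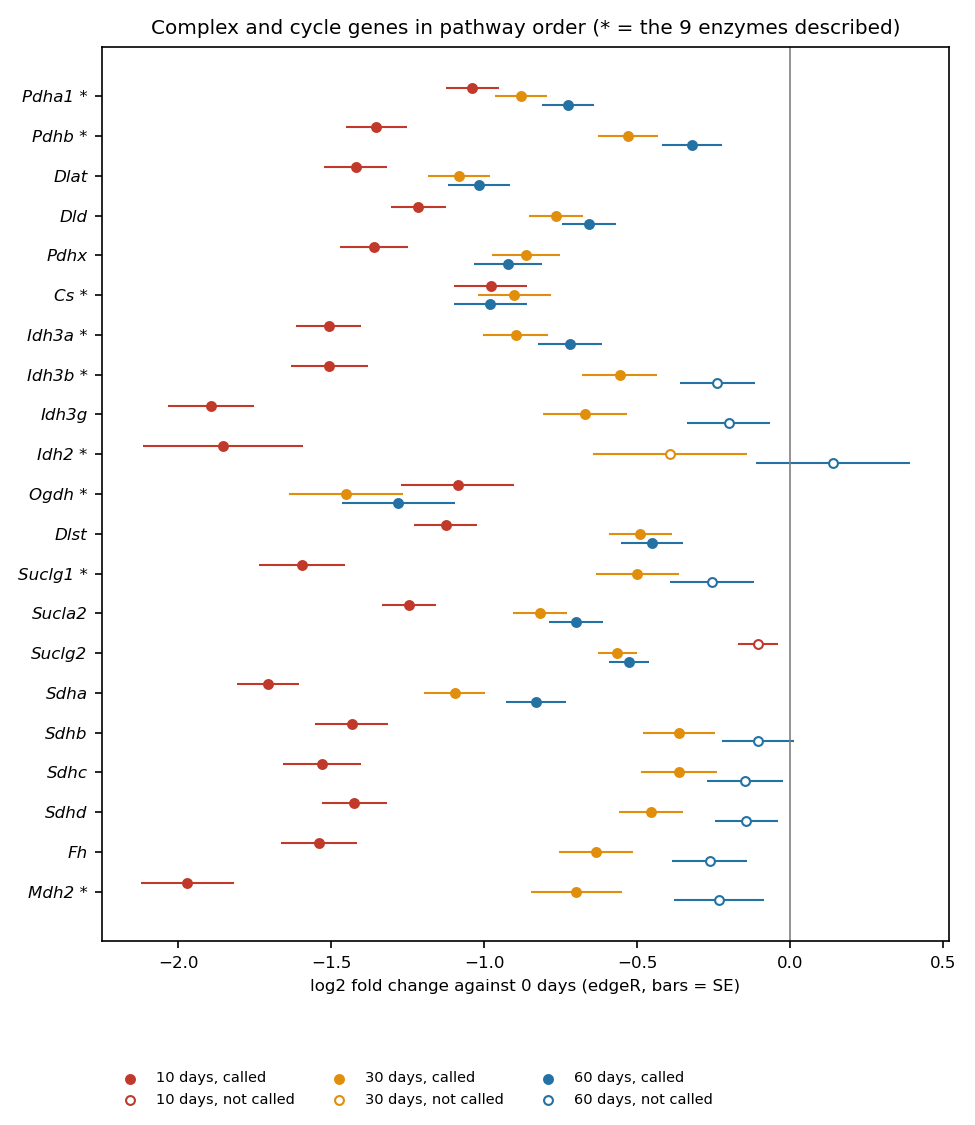
edgeR log2 fold change against 0 days (horizontal axis; bars are SE) for genes of the complex and the cycle in pathway order, the 9 enzymes starred, on day 10 (red), day 30 (orange) and day 60 (blue); filled points passed an adjusted p under 0.05. The 9 enzymes lie between -1.97 and -0.98 on day 10, and by 60 days most genes lie nearer 0, whereas Cs and Ogdh do not and Suclg2 is near 0 only on day 10.

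Pyruvate dehydrogenase is switched off by kinases (Pdk1 to Pdk4) that phosphorylate the alpha subunit and switched on by phosphatases (Pdp1 and Pdp2, with the regulatory subunit Pdpr). Of these 7 genes, 5 were lower and 1 higher on days 10 and 30, and 4 were lower and 1 higher on day 60. Over all genes 29.4%, 30.9% and 29.1% were lower and 33.3%, 33.7% and 29.9% higher at the 3 times. Pdk2, a widely expressed kinase, measured 677 to 706 CPM in unoperated muscle, 212 to 263 on day 10, 214 to 265 on day 30 and 235 to 304 on day 60. All 12 operated libraries lay far below the unoperated ones, and Pdk2 was lower by log2 -1.56 ± 0.093 (SE; edgeR adjusted p 1.08e-09), -1.55 ± 0.093 (1.42e-09) and -1.32 ± 0.093 (1.62e-08).

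Pdk4, the kinase induced by fasting and fatty acids, had the largest standard errors of the 7. It measured 547, 381, 203 and 255 CPM in unoperated muscle, 92.4, 57.7, 137 and 80.8 on day 10, 123, 196, 147 and 67.7 on day 30 and 299, 233, 243 and 68.8 on day 60. Its 10-day and 30-day libraries were all below the unoperated ones and its 60-day libraries overlapped them. Pdk4 was lower by log2 -1.91 ± 0.43 (SE; edgeR adjusted p 0.00119) on day 10 and -1.38 ± 0.43 (0.0102) on day 30 and not called on day 60 (-0.72 ± 0.42, 0.154); its 30-day call was lost with library totals (-0.90, edgeR adjusted p 0.0656). Pdk3 was higher at all 3 times from a low level, averaging 1.44 CPM ± 0.104 (SD, n = 4) in unoperated muscle and 3.80 ± 0.824, 4.41 ± 0.773 and 3.01 ± 0.952 afterwards (log2 1.40, 1.61 and 1.06; edgeR adjusted p 1.49e-05 to 0.00117).

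Pdk1 was lower by log2 -0.47 on day 10 (edgeR adjusted p 0.0305), -1.15 on day 30 and -0.90 on day 60. Its 10-day call was lost with library totals (0.19, edgeR adjusted p 0.295) and without unoperated replicate 1 or 4 or 10-day replicate 3 or 4 (0.0627 to 0.0878). The phosphatase Pdp1 was lower at each time (-0.88, -1.03 and -0.91; edgeR adjusted p 1.93e-06 to 1.01e-05), its 10-day call being lost with library totals (-0.22, edgeR adjusted p 0.0911). Pdpr was lower by -0.81, -1.33 and -1.31, its 10-day call also lost (-0.16, 0.547). Pdp2, between 2.36 and 4.25 CPM in all libraries, was not called (-0.096, -0.11 and -0.28; adjusted p 0.615, 0.547 and 0.15), and library totals gave 0.56, 0.37 and 0.12, called higher on days 10 and 30 (edgeR adjusted p 0.00364 and 0.0409).

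**Figure D4:**
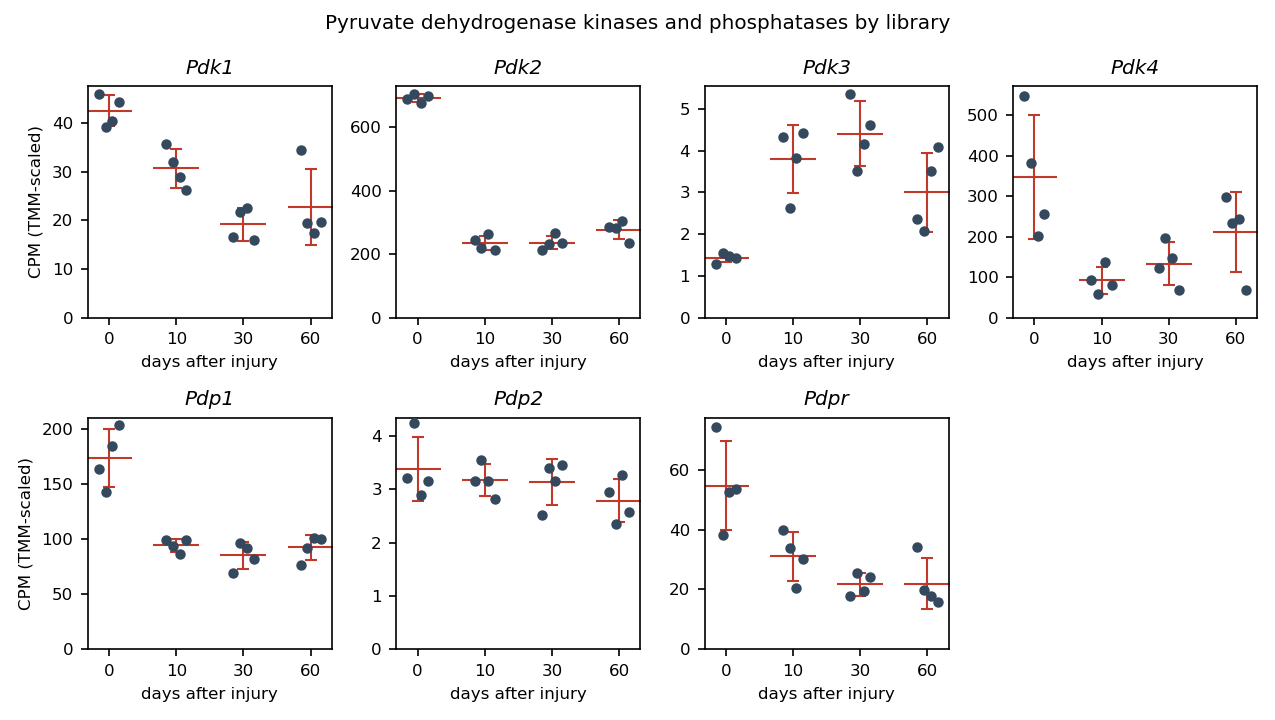
TMM-scaled CPM (vertical axes, from 0) of the 4 kinases and the phosphatase genes of pyruvate dehydrogenase by days after injury, with 1 point per library and red bars for mean and SD of 4. Pdk2 drops from 693 to 235 CPM and stays low, Pdk3 is higher in all operated groups, and the Pdk4 libraries on day 60 spread from 68.8 to 299.

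Genes around the pathway were counted by list, with genes named after their values were seen. Beside each count below stand the same shares of all genes: 29.4% lower and 33.3% higher on day 10, 30.9% and 33.7% on day 30, and 29.1% and 29.9% on day 60. Among 7 genes of pyruvate entry and refilling of the cycle, 5 were lower and 2 higher on day 10, 5 and 2 on day 30 and 4 and 2 on day 60. Mpc1 and Mpc2, the 2 subunits of the mitochondrial pyruvate carrier, were lower on day 10 (log2 -1.76 and -1.24) and day 30 (-0.87 and -0.53), and on day 60 Mpc1 was lower (-0.39) and Mpc2 was not called (-0.023, adjusted p 0.872), where library totals gave 0.024 (not called) and 0.39 (called higher, edgeR adjusted p 0.00395) and upper-quartile factors ended the call of Mpc1 (-0.24, edgeR adjusted p 0.0903). The 30-day call of Mpc2 was lost with library totals (-0.044, edgeR adjusted p 0.713). The 2 that rose at each time were Me2, the mitochondrial NAD-dependent malic enzyme (2.62, 1.85 and 1.26), and Pck2, mitochondrial phosphoenolpyruvate carboxykinase (0.58, 0.46 and 0.62). Of 3 genes of lipoic acid synthesis and transfer, whose product is a cofactor of the E2 components, 1 was lower on day 10, 1 was higher on day 30 and 0 were called on day 60 by edgeR. Both listed assembly factors of succinate dehydrogenase found in the table were lower at all 3 times.

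Of 4 genes of cytosolic counterparts, 1 was lower and 1 higher on day 10, 3 lower on day 30, and 1 lower and 1 higher on day 60, so on days 10 and 60 the shares were near those of all genes. Cytosolic malate dehydrogenase, Mdh1, was lower by log2 -1.67 on day 10 and -0.56 on day 30, the latter lost with library totals (-0.080, edgeR adjusted p 0.678) and upper-quartile factors (-0.44, 0.0542). On day 60 Mdh1 was not called (0.066, adjusted p 0.775), but was called higher with library totals (0.47, edgeR adjusted p 0.0203). Cytosolic aconitase, Aco1, was higher on day 10 (1.06) and lower on days 30 and 60 (-0.36 and -0.24), where library totals gave 0.13 and 0.16. Its 60-day call was lost with upper-quartile factors (-0.10, edgeR adjusted p 0.355), and without any 1 of the 4 unoperated libraries or without 60-day replicate 2 or 4 (edgeR adjusted p 0.0528 to 0.114). Of 8 transcriptional regulators of mitochondrial genes, 4 were lower and 1 higher on day 10, 7 and 1 on day 30, and 6 and 0 on day 60. Among the 7 lower on day 30, Esrrb had only 1 to 6 fragments per 30-day library. Tfam, also among them, was above its unoperated range with library totals (100.5 to 116 CPM against 88.1 to 93.2). Esrra, an estrogen-related receptor that activates many oxidative genes, was lower by -1.64, -1.31 and -0.90. Gabpa was the 1 higher (0.79 on day 10 and 0.25 on day 30, the latter not called with RLE factors, with DESeq2 or without unoperated replicate 1 or 2 or 30-day replicate 1, 2 or 4). On day 60 Gabpa was not called (0.062, adjusted p 0.588), but was called higher with library totals (0.47, edgeR adjusted p 0.000643).

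The genes most like the 9 were found by correlating log2 CPM over the 16 libraries with the mean standardised profile of the enzymes. Genes whose symbol is an accession or a numbered placeholder, such as LOC or RGD names, were left out of this ranking. The 10 nearest of the remaining genes that are not among the 9 had Pearson correlations of 0.987 to 0.996. These are given as a description, since all points share their group differences and scaling. Among them were Ldha (lactate dehydrogenase A), Uqcrc2, Ldhd, Ndufs1, Atp5a1, Sdha, Klhl31, Slc16a3 and Mrpl3. Uqcrc2, Ndufs1 and Atp5a1 encode respiratory chain and ATP synthase subunits, and Ldha and Slc16a3 make and export lactate. Ldha averaged 4873 CPM ± 216 (SD, n = 4) in unoperated muscle, 1138 ± 179 on day 10, 2175 ± 441 on day 30 and 2831 ± 263 on day 60. Of the 9 themselves, Idh3a lay nearest to the mean profile (0.995), and Ogdh (0.663) and Cs (0.788) lay farthest.

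Cell type markers changed too, in directions that differed between the lists. With TMM scaling the muscle fibre markers were lower for 8 of 8 on day 10, 7 on day 30 and 5 on day 60. With library totals Des was above its unoperated range on day 10 (5015 to 6081 CPM against 4457 to 4924). The other fibre markers found stayed below theirs. Per 100 fragments of those markers, the 9 enzymes gave 3.70 ± 0.0882 (SD, n = 4) in unoperated muscle, 5.88 ± 0.531 on day 10, 4.44 ± 0.504 on day 30 and 4.47 ± 0.483 on day 60, so the summed marker fragments fell by more than those of the enzymes. That sum is weighted to its most abundant genes, Acta1 among them, and single markers differed widely. On day 10 their log2 fold changes ran from -3.01 to -0.41 (median -1.70), beside -1.97 to -0.98 (median -1.51) for the 9 enzymes. The 6 fibroblast markers summed to 429 to 929 CPM in unoperated muscle and 820.3 to 2405, 1331 to 2145 and 1221 to 2599 afterwards, with Col1a2 listed at 0 in every library and 4, 5 and 5 of the 5 tested called higher. The 6 macrophage markers summed to 18.7 to 38.8 CPM in unoperated muscle and 62.0 to 85.5, 96.0 to 117 and 77.9 to 142 afterwards, with 5, 6 and 6 called higher. The 5 endothelial markers summed to 248 to 291 CPM in unoperated muscle and 143 to 209.9 on day 10, all 5 lower, and to 212 to 233 and 224 to 334 afterwards, with 2 lower on day 30 and 1 lower and 1 higher on day 60. With library totals, Kdr alone stayed below its unoperated range on day 10 (20.7 to 35.5 CPM against 38.5 to 53.5). Pecam1, Cdh5, Tek and Vwf then overlapped their unoperated ranges. The 4 adipocyte markers summed to 7.42 to 41.5 CPM in unoperated muscle and 8.73 to 24.6, 11.5 to 27.8 and 49.6 to 119 afterwards, called higher for 0, 0 and 4. The 4 Schwann cell markers summed to 37.6 to 62.0 CPM in unoperated muscle and to 18.3 to 35.2, 35.9 to 61.2 and 67.0 to 150.1 afterwards, with 1 lower on day 10, 2 higher on day 30 and 4 higher on day 60. The 2 satellite cell markers summed to 3.19 to 4.37 CPM in unoperated muscle and 7.23 to 13.8, 7.36 to 11.9 and 4.85 to 7.60 afterwards, with 1 called higher at each time. The part of cell make-up in the enzyme results was not tested.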

How the data were processed

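RNA from supraspinatus of 16 rat libraries, 4 at each of 0, 10, 30 and 60 days, was made into TruSeq mRNA libraries, per the labels' protocols. The deposited table holds fragments per gene as estimated counts, per the file headers raw fragments, with a fractional value in 233 genes. The submitters' processing notes name bcl2fastq 1.8.4, FastQC, TopHat2 2.0.9, Bowtie2 2.1.0.0, Cufflinks, Cuffdiff 2.1.1 and build rn5. The annotation, strandedness and filters are not given in the sources used here, so genes that overlap or resemble one another may share fragments.

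Counts were rounded to whole numbers and tested in R 4.3.3 with edgeR 4.0.16 (TMM factors, filterByExpr, robust quasi-likelihood fit of all 16 libraries, Benjamini-Hochberg adjustment over 11658 genes, threshold 0.05). SE is the log2 fold change divided by the square root of F. Ratios were compared with two-sided exact permutation tests, adjusted over 24. The edgeR code was tested on simulated data. A count of 3 fragments, the floor, is 0.0752 to 0.175 CPM at these depths. Groups were read from the time label. Alternatives were other scalings, DESeq2 1.42.0, limma-voom (limma 3.58.1), no filter, the 8 libraries compared alone, covariates and leaving out each library. Motifs were searched with Python 3.11.15.

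Values are given for the 9 enzymes, for genes of the lists on the complex, the cycle and its kinases and phosphatases, and for the 10 genes nearest in profile. The values of 1 gene of these lists are not reported here, though counts and medians of the lists include it. The enzymes, the lists and the tests were chosen with earlier results of these data known. Same-numbered columns were checked for pairing: the mean correlation of their deviations ran from -0.107 to 0.0626, and at most 2 of the 4 pairs in a comparison exceeded 0.1, so the numbers were not treated as pairs.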

Additional observations from a re-analysis of the deposited data

Results flagged for a closer look

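In 3 of the 36 combinations of an enzyme and a group, 1 library stood apart from the other 3 by Dixon's criterion, which chance meets in about 1 of 20 groups. At 10 days replicate 1 had the highest Idh2 (631 CPM, next 333) and the highest Idh3b (253 CPM, next 217), and at 0 days replicate 3 had the highest Suclg1 (610 CPM, next 579). The 10-day replicate 1 lay above its group mean for 9 of the 9 enzymes. The 30-day replicate 2 did so too. Replicate 1 of 30 days, replicate 3 of 10 days and replicate 4 of 60 days lay below their group means for all 9. In these libraries, in the order named, the mean log2 deviations of the 9 were 0.242, 0.247, -0.307, -0.116 and -0.171. The SD of the deviations of all genes tested was 0.244, 0.235, 0.29, 0.222 and 0.303 there. Within groups the enzymes were correlated (median Pearson r 0.654 over 36 pairs), so these are not 9 separate observations.

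The log2 changes from 0 days differed between 10 and 30 days for Pdhb (0.822), Idh2 (1.46), Idh3a (0.611), Idh3b (0.949), Suclg1 (1.10) and Mdh2 (1.27), as tested by edgeR between the operated groups. Between 10 and 60 days they differed for Pdha1 (0.313), Pdhb (1.03), Idh2 (1.99), Idh3a (0.790), Idh3b (1.27), Suclg1 (1.34) and Mdh2 (1.74). Between 30 and 60 days they differed for Mdh2 (0.467).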

How the results depend on the processing

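All 9 enzymes were called lower at 10 days under every alternative run. With library totals the number called lower was 4 at 30 days against 0 days, 1 at 30 against 10 days and 2 at 60 against 10 days. Also with library totals, signs turned at 10 days for Suclg2 (0.55), Pdk1 (0.19) and Pdp2 (0.56), at 30 days for Idh2 (0.085), Sdhb (0.12), Sdhc (0.12), Sdhd (0.033), Pdp2 (0.37) and Aco1 (0.13), and at 60 days for Pdhb (0.086), Idh3b (0.17), Suclg1 (0.155), Mdh2 (0.18), the median of the 9 (0.086), Idh3g (0.21), Sdhb (0.30), Sdhc (0.26), Sdhd (0.27), Fh (0.15), Pdp2 (0.12), Mpc1 (0.024), Mpc2 (0.39) and Aco1 (0.16). They turned too from 10 to 30 days for Pdha1 (-0.0033) and Cs (-0.088). Upper-quartile factors turned Pdp2 at 30 days (0.0094), Sdhb (0.037) and Mpc2 (0.12) at 60 days and Cs from 10 to 60 days (0.082), where RLE factors and DESeq2 gave 0.028 and the 8 libraries alone 0.0028. Upper-quartile factors also ended the 60-day call of Pdhb (-0.18, edgeR adjusted p 0.127). From 30 to 60 days the number called higher was 2 with DESeq2, 3 with the title letter as covariate and 0 with the 8 libraries alone. Leaving out each library gave 0 to 2 there, 0 to 1 called lower from 10 to 30 and from 10 to 60 days, and 4 to 6 called lower at 60 days. Leaving out each library also spanned 0 for Cs from 10 to 30 days (-0.0078 to 0.13), 10 to 60 days (-0.13 to 0.099) and 30 to 60 days (-0.21 to 0.017), Ogdh from 30 to 60 days (-0.062 to 0.30), Pdp2 at 10 days (-0.16 to 0.044) and 30 days (-0.18 to 0.028), and Mpc2 (-0.088 to 0.056), Mdh1 (-0.028 to 0.16) and Gabpa (-0.023 to 0.13) at 60 days. The log2 ratio of Idh3b to Idh3a at 10 days was -0.0040 from summed fragments and -0.017 to 0.022 without each library. Apart from the scalings the cause was not tested. The replicate block left the counts of called enzymes at 9, 8 and 5 lower against 0 days and 6, 1 and 7 higher between operated groups, and changed no enzyme's call.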
